A study of Mus musculus with 37 samples.

Results

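This section describes 10 mouse genes of the fibroblast growth factor (FGF) system in oocytes and embryos that lack maternal BAP1, an enzyme that takes ubiquitin off histone H2A. The genes were 6 ligands (Fgf3, Fgf4, Fgf5, Fgf8, Fgf10 and Fgf15) and 4 receptors (Fgfr1, Fgfr2, Fgfr3 and Fgfr4), found by symbol among the 55401 genes listed in each of the deposited tables. FGFs are secreted proteins that bind receptor tyrosine kinases on the cell surface together with heparan sulfate, or with a klotho protein for the endocrine members such as FGF15. The bound receptor recruits adaptors such as FRS2, GRB2 and GAB proteins and switches on the Ras-ERK kinase cascade, whose target genes include its own inhibitors of the Sprouty, SPRED and dual-specificity phosphatase families. In the mouse embryo FGF4 from the inner cell mass and epiblast acts on FGFR1 and FGFR2 to specify primitive endoderm and to maintain trophoblast, FGF5 marks the early post-implantation epiblast, and FGF8 is needed for cells to move through the primitive streak.

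The study asked how loss of BAP1 changes the transcriptome of oocytes and of the embryos made from them, in 37 RNA-seq libraries. Every female carried Bap1 flox/flox; the knockout females carried Gdf9-iCre as well, which expresses the recombinase in the oocyte, so the surrounding follicle cells and the sperm keep an intact gene. The 26 total RNA libraries came from fully grown oocytes (FGO), MII eggs, late 1-cell embryos, and 2-cell embryos taken early or late in that stage, with 2 control and 3 knockout libraries a stage, except for early 2-cell embryos with 3 of each. The 11 poly(A) libraries came from the embryonic day 6.5 epiblast and visceral endoderm, with 2 control and 2 knockout libraries each, and extraembryonic ectoderm, with 1 control and 2 knockout libraries. Oocytes and eggs are labelled Bap1 flox/flox or Gdf9-iCre, Bap1 flox/flox; embryos have the same mothers and B6 fathers at the 1-cell and 2-cell stages and PWK fathers at day 6.5, so knockout embryos lack the maternal product and have a wild-type paternal allele. The labels do not say whether replicates were separate females or pools, so p-values measure the spread between these libraries, which may be technical.

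Levels are given as FPKM, which divides fragments by gene length and by library size, so that different genes can be set side by side per length. Libraries held 10353 to 11942 genes at 1 FPKM or more in total RNA and 10476 to 12459 in poly(A) RNA. Bap1 was 16.3 to 29.9 FPKM in the early control libraries and 3.76 to 11.7 FPKM in the knockouts; at day 6.5 it was 14.02 to 22.6 FPKM in controls and 18.3 to 33.8 FPKM in maternal knockouts, and the floxed exons were not looked at apart. The summed level of 7 oocyte markers was 2621 to 3114 FPKM in FGO and 449 to 864 FPKM in late 2-cell embryos, and that of 6 genome activation markers 15.4 to 26.3 FPKM in FGO and 92.2 to 312 FPKM in 2-cell embryos. The summed markers of each lineage at day 6.5 were highest in the libraries of that lineage. Those of extraembryonic ectoderm were still 1150 to 2201 FPKM in visceral endoderm, against 4057 to 5001 FPKM in their own lineage. Decidua and blood markers summed to 40.9 and 0.0259 FPKM in the knockout visceral endoderm libraries and at most 0.251 FPKM in the controls. The control and the second knockout library of extraembryonic ectoderm held the epiblast marker Pou5f1 at 20.5 and 13.8 FPKM, against 0.127 FPKM in the first knockout library. All 6 epiblast markers together summed to 607 FPKM in that control and 485 to 583 FPKM in the knockouts. Differences were tested on log2(FPKM + 1) with limma, adjusted by Benjamini-Hochberg over all genes tested in a comparison, and a gene is said to rise or fall where the adjusted p was under 0.05.

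The 10 genes lie on 5 chromosomes of GRCm38, and 3 ligands are neighbours on the plus strand of chromosome 7. Fgf3 is at chr7:144838083-144844436, Fgf4 at chr7:144847367-144865243 and Fgf15 at chr7:144896531-144900953, within 62871 bases. Fgf8 is at chr19:45736798-45742915 (minus strand), Fgf10 at chr13:118669791-118792115, Fgf5 at chr5:98254184-98277030, and the receptors Fgfr1 at chr8:25513654-25575718, Fgfr2 at chr7:130162451-133123350 (minus strand), Fgfr3 at chr5:33721674-33737068 and Fgfr4 at chr13:55152640-55168759. All are protein-coding. Other annotated genes on the opposite strand cover 25.7% of the exonic bases of Fgf15 and 13.9% of those of Fgfr3, and whether strand was used in counting is not stated, so reads of these overlaps cannot be told apart. The promoter sequences of Fgf4 and Fgf10 are shown because these ligands showed the falls in early knockouts described next. Each is the 250 bases upstream of the RefSeq start (GRCm38.p6, plus strand, 5′ to 3′), with CG dinucleotides, the sites of DNA methylation, in capitals. The Fgf4 window is chr7:144861136-144861385 and the Fgf10 window is chr13:118714449-118714698.
Fgf4: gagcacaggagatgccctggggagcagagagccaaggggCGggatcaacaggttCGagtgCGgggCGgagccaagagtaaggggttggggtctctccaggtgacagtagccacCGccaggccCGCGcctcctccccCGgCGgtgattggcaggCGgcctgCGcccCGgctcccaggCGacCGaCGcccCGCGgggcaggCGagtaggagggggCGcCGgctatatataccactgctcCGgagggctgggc
Fgf10: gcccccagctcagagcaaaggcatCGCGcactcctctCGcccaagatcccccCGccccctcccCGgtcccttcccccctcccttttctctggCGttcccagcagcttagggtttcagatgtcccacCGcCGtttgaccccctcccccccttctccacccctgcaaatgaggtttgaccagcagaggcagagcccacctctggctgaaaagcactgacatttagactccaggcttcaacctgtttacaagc
Fgf4 has 21 CG dinucleotides here and Fgf10 has 8. Over the full RefSeq window of 300 bases, which runs on past the start, the count was 28 for Fgf4 and 10 for Fgf10, against a median of 7 over 32851 promoter windows, of which 94.6% hold at least 1 CG (the motif reads the same on both strands). Among the other genes found in the promoter table, Fgf5 had 29, Fgfr3 had 26 and 30 at its 2 starts, Fgfr4 had 20, Fgf3 had 14 and Fgfr2 had 4. Both genes also have annotated transcripts that start further upstream, and gene-level FPKM does not tell them apart. DNA methylation was not measured here.

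In oocytes and early embryos 5 of the 10 genes were measured, namely Fgf4, Fgf8, Fgf10, Fgfr1 and Fgfr2, which reached 1 FPKM in at least 2 of the 26 libraries. Fgf3, Fgf5, Fgf15, Fgfr3 and Fgfr4 did not, and the highest value among them was 0.951 FPKM, for Fgfr3. These 5 genes were not tested, and Fgf5 was listed at 0 in 24 of 26 libraries. Fgfr4, the receptor through which FGF15 acts on liver, was listed at 0 in all libraries up to the early 2-cell stage and reached 0.366 to 0.839 FPKM in the 5 late 2-cell libraries.

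Fgf8, the gastrulation ligand, was the most abundant FGF gene of the oocyte. In control libraries it was 81.7 and 81.8 FPKM in FGO, 60.5 and 63.2 in MII eggs, 29.1 and 28.8 in late 1-cell embryos, 9.78, 7.02 and 9.35 in early 2-cell embryos, and 1.72 and 3.06 in late 2-cell embryos. The level thus went down at each stage, and neighbouring stages did not overlap in the controls. Averaged over both genotypes, Fgf8 fell by 0.51 on the log2(FPKM + 1) scale from FGO to MII (adjusted p 0.000288, limma with Benjamini-Hochberg), by 0.92 to the late 1-cell stage (6.69e-08), by 1.49 to the early 2-cell stage (4.48e-09) and by 0.93 to the late 2-cell stage (2.75e-05).

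The knockout embryos kept more Fgf8 RNA at the end of this series. Knockout levels were 95.3, 103 and 104 FPKM in FGO, 61.6, 73.4 and 59.9 in MII eggs, 42.5, 39.2 and 31.9 in late 1-cell embryos, 13.02, 13.97 and 15.96 in early 2-cell embryos, and 7.98, 12.2 and 14.4 in late 2-cell embryos. Every knockout library lay above every control library at each stage but MII. In late 2-cell embryos Fgf8 rose by 1.88 ± 0.22 (SE; adjusted p 1.27e-06, limma), with 3 of 3 knockout libraries above both controls. At the other stages the difference did not pass the threshold: 0.30 in FGO (adjusted p 0.144), 0.07 in MII eggs (0.816), 0.37 in late 1-cell embryos (0.0623) and 0.66 in early 2-cell embryos (0.0574). The late 1-cell difference passed without knockout library 3 (0.48, adjusted p 0.0161), and the early 2-cell difference passed with TPM scaling (0.81, adjusted p 0.0326) and with median centring (0.75, adjusted p 0.0250). The summed level of 7 oocyte markers moved the same way in late 2-cell embryos, 449 to 473 FPKM in controls and 733 to 864 in knockouts, and so did that of 6 genome activation markers, 116 to 117 against 246 to 312; their part in the Fgf8 difference was not tested.

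Fgf10, a ligand of the FGFR2b isoform best known from lung and limb, was present at a low level in control oocytes and close to absent in knockouts. Control libraries held 1.597 and 1.608 FPKM in FGO, 1.35 and 1.16 in MII eggs, 2.21 and 2.02 in late 1-cell embryos, and 1.82, 1.34 and 1.59 in early 2-cell embryos. Knockout libraries held 0.143, 0.0892 and 0.0482 FPKM in FGO, 0.131, 0.115 and 0.0732 in MII eggs, 0.180, 0.222 and 0.354 in late 1-cell embryos, and 0.0365, 0.286 and 0.0796 in early 2-cell embryos. No knockout library came near a control at these 4 stages, and Fgf10 reached the 1 FPKM of the filter in control libraries only. On the log2(FPKM + 1) scale Fgf10 fell by 1.25 ± 0.09 (SE) in FGO (adjusted p 2.43e-09), 1.02 ± 0.08 in MII eggs (5.86e-09), 1.32 ± 0.09 in late 1-cell embryos (1.36e-09) and 1.19 ± 0.15 in early 2-cell embryos (3.63e-05, limma with Benjamini-Hochberg). This scale compresses changes of low genes: with a pseudocount of 0.1 the same 4 differences lay between -3.17 and -2.68. In late 2-cell embryos controls were down to 0.528 and 0.286 FPKM and knockouts were at 0.102, 0.117 and listed at 0. That difference was -0.39 ± 0.15 (adjusted p 0.0453) and did not pass without the first control library (adjusted p 0.343), without the second (0.0624) or the third (0.148) knockout library, or with TPM scaling (0.0682) or median centring (0.0708).

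Follicle cells surround the growing oocyte, and a list of 9 cumulus and granulosa markers was read in the same libraries. Its summed level was 7.945 to 8.92 FPKM in control FGO and 3.38 to 3.57 FPKM in knockout FGO, and it was also lower in knockouts at the other stages. Its most abundant gene there was Cyp19a1, the aromatase gene, at 6.72 and 5.16 FPKM in control and 1.83, 1.52 and 1.87 FPKM in knockout FGO. Of the 9 markers 2, Cyp19a1 among them, averaged 1 FPKM or more in control FGO, and 2 in knockout FGO. In control FGO 2 of them were listed at 0, and in knockout FGO 3. Amh, Foxl2 and Fshr were at most 0.288, 0.101 and 0.106 FPKM in any FGO library. The other markers are not given singly. The part of the 9 markers in the Fgf10 difference was not tested.

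Fgf4, the ligand of the inner cell mass, came on at the late 2-cell stage in controls and much less so in knockouts. It was listed at 0 in all 10 FGO and MII libraries, was at most 0.0210 FPKM in late 1-cell embryos and at most 0.270 FPKM in early 2-cell embryos. In late 2-cell embryos it was 12.4 and 13.9 FPKM in controls and 2.43, 0.761 and 1.22 FPKM in knockouts, so that the highest knockout library was far below the lower control. The difference was -2.57 ± 0.18 (SE, 95% interval -2.95 to -2.19), a fold of 0.168 on FPKM + 1, with an adjusted p of 2.63e-09 by limma, and 3 of 3 knockout libraries lay below both controls. Averaged over genotypes Fgf4 rose by 2.43 from the early to the late 2-cell stage (adjusted p 2.28e-12, limma). Fgf4 passed the filter through late 2-cell libraries alone, so this p-value is for a rise into the stage that admitted the gene. In these bulk libraries, fewer cells with the RNA and less RNA per cell cannot be told apart.

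**Figure D1:**
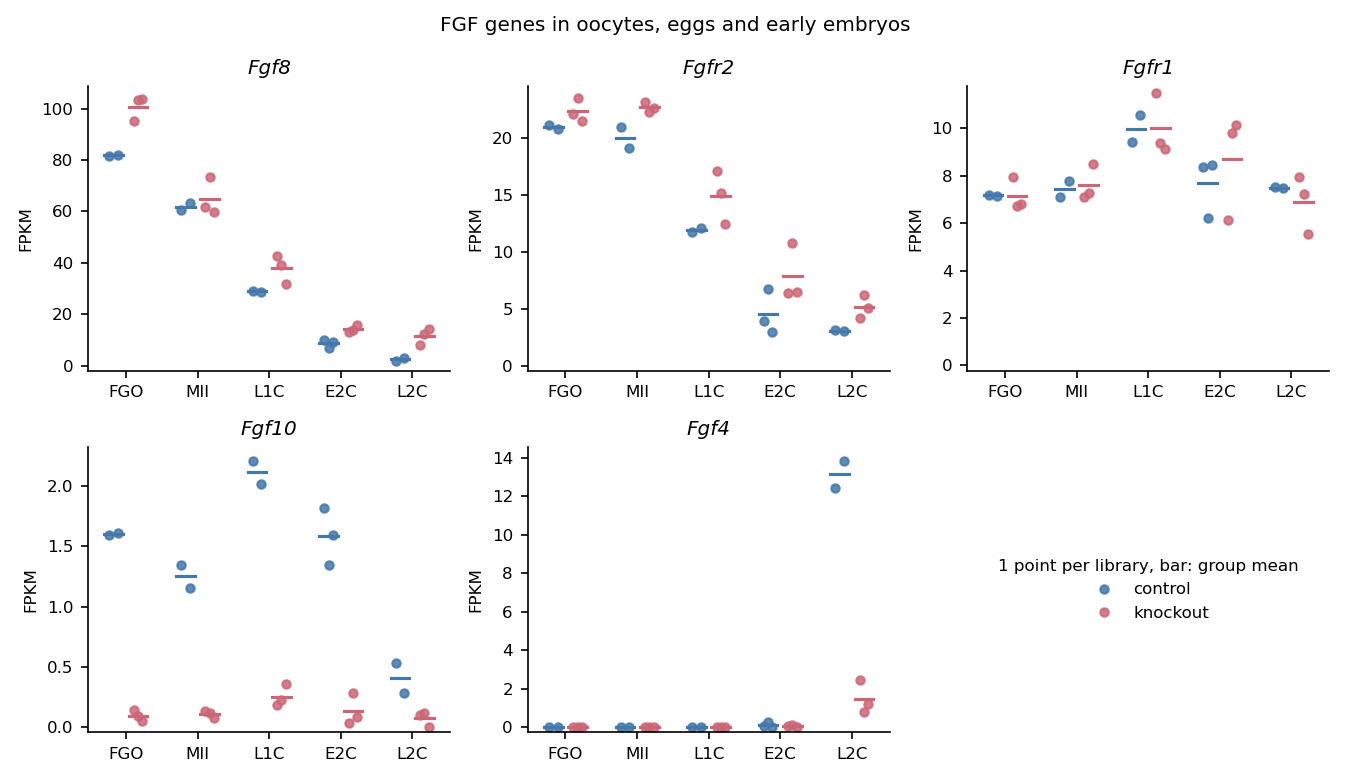
FPKM (y axis, linear, 1 point per library, bar at the group mean) of the 5 FGF genes that were measured in fully grown oocytes (FGO), MII eggs (MII) and late 1-cell (L1C), early 2-cell (E2C) and late 2-cell (L2C) embryos, controls in blue and knockouts in red. Fgf10 is low in every knockout group, Fgf4 is seen at L2C with controls at 12.4 and 13.9 FPKM, and Fgf8 and Fgfr2 go down with stage.

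Of the receptors, Fgfr2 was the maternal one that declined and Fgfr1 the one that stayed. Fgfr2 was 21.1 and 20.8 FPKM in control FGO, 20.9 and 19.1 in control MII eggs, 11.7 and 12.1 in late 1-cell controls, 3.89, 6.73 and 2.98 in early 2-cell controls, and 3.11 and 3.03 in late 2-cell controls. Averaged over genotypes it fell by 0.64 from MII to the late 1-cell stage (adjusted p 8.39e-06), by 1.07 to the early 2-cell stage (5.57e-07) and by 0.45 to the late 2-cell stage (0.0186, limma with Benjamini-Hochberg). The last of these steps was lost without the second early 2-cell control (adjusted p 0.0780) or the second early 2-cell knockout (0.0700). From FGO to MII the difference was -0.02 (95% interval -0.21 to 0.16). Fgfr1 lay between 5.53 and 11.5 FPKM in all 26 libraries. As fitted, its largest step was a rise of 0.36 from MII to the late 1-cell stage (adjusted p 0.00147, limma). Its step to the early 2-cell stage (-0.28, adjusted p 0.0564) passed in 7 of 18 alternatives, with -0.44 under TPM scaling (0.00555). Its step to the late 2-cell stage (-0.15, 0.388) passed with median centring (-0.43, 0.0102).

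Knockout Fgfr2 was somewhat higher after fertilization. It was 22.1, 23.5 and 21.5 FPKM in knockout FGO, 23.2, 22.2 and 22.6 in MII eggs, 17.1, 15.1 and 12.4 in late 1-cell embryos, 6.38, 10.7 and 6.47 in early 2-cell embryos, and 4.18, 6.16 and 5.09 in late 2-cell embryos. The groups overlapped in early 2-cell embryos and in no other stage. The rise was 0.70 ± 0.23 in early 2-cell embryos (adjusted p 0.0450) and 0.58 ± 0.22 in late 2-cell embryos (0.0428, limma), and neither held when single libraries were left out. The early 2-cell call was lost without the first control (0.156), the third control (0.212) or the second knockout (0.232), and the late 2-cell call without either control (0.137 and 0.154), the second knockout (0.163) or the third knockout (0.0991). In FGO, MII eggs and late 1-cell embryos the differences were 0.09, 0.17 and 0.29, with adjusted p of 0.761, 0.381 and 0.150. Fgfr1 did not pass the threshold at any stage: the 95% interval of the knockout difference was -0.26 to 0.24 in FGO, -0.20 to 0.25 in MII eggs, -0.26 to 0.25 in late 1-cell embryos, -0.29 to 0.58 in early 2-cell embryos and -0.53 to 0.30 in late 2-cell embryos.

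In counts, the knockout changed 1 of the 5 measured genes in FGO, where 13.9% of all genes tested were called, 1 of 5 in MII eggs (16.8% of all genes), 1 of 5 in late 1-cell embryos (17.6%), 2 of 5 in early 2-cell embryos (13.5%) and 4 of 5 in late 2-cell embryos (34.2%). In FGO, MII eggs and late 1-cell embryos the gene called was Fgf10. It passed the filter through its control libraries alone, with at most 0.354 FPKM in any knockout library. The counts at these stages thus rest on a gene selected where the controls were high. Fgf10 was also 1 of the genes called in early and in late 2-cell embryos, so those counts share this limit. In late 2-cell embryos the calls of Fgf10 and Fgfr2 were lost in 7 of 12 and 6 of 14 alternatives. The early 2-cell call of Fgfr2 was lost in 6 of 15. With development 1 of 5 changed from FGO to MII (15.2% of all genes), 4 of 5 from MII to late 1-cell (32.5%), 2 of 5 from late 1-cell to early 2-cell (57%) and 4 of 5 from early to late 2-cell (60.1%). The last of these counts includes Fgf4, which passed the filter through late 2-cell libraries alone. With 5 genes measured the counts are descriptions. The knockout effect itself changed between early and late 2-cell embryos for 3 of 5 genes, against 18.9% of all genes. It became lower for Fgf4 by 2.49 (adjusted p 1.99e-06), higher for Fgf8 by 1.21 (0.00880) and higher for Fgf10, whose controls had declined, by 0.80 (0.0104, limma interaction contrasts). Between the earlier pairs of consecutive stages none of the 5 passed this test, where 0%, 0.198% and 3.35% of all genes were called; Fgf10 between MII and late 1-cell came nearest by limma, with a Benjamini-Hochberg adjusted p of 0.299, and 1678, 1904 and 2471 of all genes had an unadjusted p under 0.05.

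**Figure D2:**
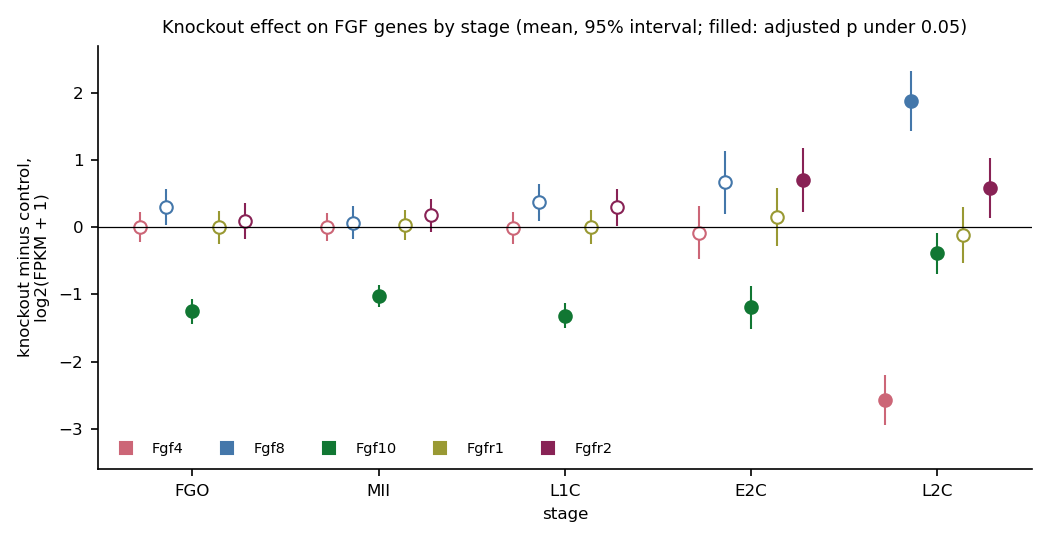
Knockout minus control difference on log2(FPKM + 1) (y axis) by stage (x axis) for the 5 measured FGF genes, with 95% intervals from the fit over 26 libraries; filled points have an adjusted p under 0.05. Fgf10 lies below 0 at all 5 stages, and Fgf4 at -2.57 and Fgf8 at 1.88 part at the late 2-cell stage.

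The other FGF ligands were read from a list of 16, of which 4 were tested in early libraries. Fgf1, an FGF that binds all receptors, was 5.56 and 5.64 FPKM in control and 8.44, 10.7 and 20.5 FPKM in knockout late 2-cell embryos, a rise of 1.02 ± 0.28 (adjusted p 0.00813, limma) with no overlap. It was the 1 of 4 tested ligands that changed at that stage, where 34.2% of all genes were called. In early 2-cell embryos Fgf1 was 4.04 to 5.60 FPKM in controls and 1.81 to 3.13 FPKM in knockouts, which did not pass the threshold. Fgf1 also rose in MII eggs (0.50, adjusted p 0.0296) and late 1-cell embryos (0.63, 0.0152). Fgf18 and Fgf7, chosen after their values were seen, were the 2 of 4 tested ligands that changed in FGO, where 13.9% of all genes were called. The mean of Fgf18 was 1.29 FPKM in knockouts and 0.262 in controls (rise of 0.86, adjusted p 0.00573, limma). Only its knockout mean there lay above the 1 FPKM of the filter. The mean of Fgf7 was 2.33 FPKM in knockouts and 3.63 in controls (-0.48, adjusted p 0.0276, lost with median centring). Fgf18 also rose in MII eggs and late 1-cell embryos, by 0.86 and 0.96 (adjusted p 0.00183 and 0.00216, limma). At each of these stages 2 of 4 ligands were called, against 16.8% and 17.6% of all genes. With 4 ligands tested the counts are descriptions.

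Targets and feedback inhibitors of FGF-ERK signalling were 22 listed genes, 21 in the tables and 19 tested. In knockouts 3 of 19 fell in FGO (Etv5, Il17rd and Spred2; 9.97% of all genes fell), 2 in MII eggs (Etv5 and Spred2; 10.2%), 4 in late 1-cell embryos (Etv5, Myc, Spred2 and Spry4; 10%), 4 in early 2-cell embryos (Dusp6, Myc, Spred2 and Spry2; 7.28%) and 6 in late 2-cell embryos (17.2%), namely Dusp6, Etv5, Ier3, Myc, Spred2 and Spred3. The risers were none in FGO and MII eggs, Egr1 in late 1-cell embryos, Il17rd in early 2-cell embryos and Egr1 in late 2-cell embryos. In late 2-cell embryos the median difference of the 19 was -0.17, against 0.03 for all genes tested, and 7 of 19 called is close to the 34.2% of all genes. With TPM scaling 4 of 20 tested fell there, and with median centring 3 more genes rose in MII eggs. The falls of Il17rd in FGO and Spry4 in late 1-cell embryos passed under neither scaling, and that of Myc in early 2-cell embryos was lost with median centring. Most of these genes also answer to other receptor tyrosine kinases.

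Spred2, an inhibitor of the step from Ras to Raf, fell at all 5 stages. It was 5.37 and 6.64 FPKM in control FGO and 1.75, 2.15 and 2.47 FPKM in knockout FGO, and 15.4 and 17.7 FPKM in control and 5.36, 6.15 and 6.25 FPKM in knockout late 2-cell embryos. The groups did not overlap at any stage. The differences were -1.17 in FGO (adjusted p 4.97e-07), -0.76 in MII eggs (2.41e-05), -1.50 in late 1-cell embryos (1.73e-08), -1.16 in early 2-cell embryos (0.000800) and -1.34 in late 2-cell embryos (2.53e-05, limma). Etv5, an ETS factor induced by FGF signalling, showed the largest fall of the list at the late 2-cell stage: 9.39 and 9.99 FPKM in controls and 2.38, 2.54 and 3.11 FPKM in knockouts, a difference of -1.54 ± 0.24 (adjusted p 5.47e-05). Its knockout effect also differed between early and late 2-cell embryos, by -1.19 (adjusted p 0.0219), which was lost with TPM scaling (-1.12, adjusted p 0.257).

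Some feedback genes, chosen after their values were seen, moved with the 2-cell stages. Spry2, a Sprouty inhibitor, was 1.05, 1.31 and 2.58 FPKM in early 2-cell controls and 0, 0.112 and 0.183 FPKM in knockouts, a fall of 1.23 (adjusted p 0.000154, limma). By the late 2-cell stage it was 6.89 and 8.97 FPKM in controls and 5.70, 7.00 and 7.08 FPKM in knockouts, and the groups overlapped. Dusp6, the phosphatase that removes phosphate from ERK, was 2.89, 3.15 and 4.37 FPKM in early 2-cell controls and 0.385, 0.691 and 1.07 FPKM in knockouts (-1.39, adjusted p 0.000260). In late 2-cell embryos it was 4.94 and 7.59 against 3.17, 3.57 and 4.50 FPKM (-0.60, adjusted p 0.0297, lost with TPM scaling). Spry4, another Sprouty gene, was far more abundant, at 123 to 253 FPKM in all early libraries.

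**Figure D3:**
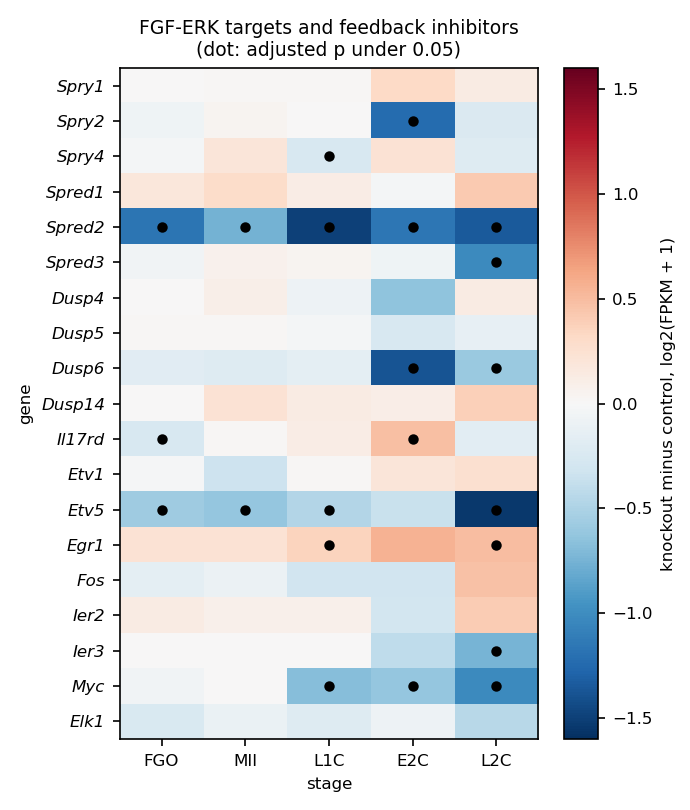
Knockout minus control difference on log2(FPKM + 1) (colour, blue lower and red higher in knockouts) of the 19 tested FGF-ERK targets and feedback inhibitors (y axis) by stage (x axis), with a dot where the adjusted p is under 0.05. Spred2 is marked at 5 of 5 stages, and Spry2 and Dusp6 are lowest at E2C.

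Upstream of ERK, 24 of 25 listed adaptors and kinases were tested. In knockouts 1 rose and 0 fell in FGO (13.9% of all genes called), and 3 rose and 2 fell in MII eggs (16.8%). In late 1-cell embryos 1 rose and 4 fell (17.6%), and in early 2-cell embryos 4 rose and 1 fell (13.5%). Gab2, a docking adaptor, had the largest rise of this list from FGO to early 2-cell embryos: 0.43 in FGO (7.88 and 8.15 FPKM in controls, 10.5, 11.4 and 11.5 in knockouts, adjusted p 0.00298), 0.59 in MII eggs (2.52e-05), 0.54 in late 1-cell embryos (0.000372) and 1.14 in early 2-cell embryos (9.72e-05, limma). In late 2-cell embryos 4 of 24 rose and 4 fell, a share near the 34.2% of all genes called there. Mapk3, which encodes ERK1, was 21.1 and 25.4 FPKM in controls and 46.8, 49.0 and 49.5 FPKM in knockouts (rise of 1.03, adjusted p 3.16e-05). Sos1, the exchange factor that loads Ras, was 13.6 and 14.4 FPKM in controls and 4.65, 4.97 and 6.02 FPKM in knockouts (fall of 1.28, adjusted p 6.42e-05). In both genes every knockout library lay on 1 side of the controls. Of 28 listed co-receptor and heparan sulfate genes 14 were tested. Sulf2, a sulfatase that trims heparan sulfate, rose in FGO (0.36, adjusted p 0.00671), MII eggs (0.34, 0.00345), late 1-cell embryos (0.31, 0.0166), early 2-cell embryos (0.69, 0.00379) and late 2-cell embryos (0.77, 0.000300), and 4 of 14 rose and 1, the sulfotransferase gene Hs6st1, fell at the late 2-cell stage (-0.37, 0.00472, lost with TPM scaling), again near the 34.2% of all genes. Gpc3, a proteoglycan chosen after its values were seen, averaged 1.63 FPKM in control and 0.121 FPKM in knockout FGO (-1.23, adjusted p 2.15e-07, limma). In FGO only the control mean of Gpc3 lay above the 1 FPKM of the filter. Its p-value there may thus not be independent of the filter. Gpc3 also fell in MII eggs and late 1-cell embryos.

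At embryonic day 6.5 all 10 genes passed the filter, and they divided by lineage. The epiblast, which forms the fetus, held Fgf4, Fgf5, Fgf8, Fgf15 and Fgfr1. The visceral endoderm, a nutritive and signalling epithelium, held Fgf5, Fgf8, Fgf10, Fgfr3 and Fgfr4. The extraembryonic ectoderm, the source of the placental trophoblast, held Fgfr1, Fgfr2 and Fgfr4. A single lineage with more than 1 FPKM was seen for Fgf4, Fgf10 and Fgfr3, leaving the rest in more than 1. With both genotypes averaged, 7 of 10 genes differed between epiblast and visceral endoderm (35.8% of all genes tested), 6 of 10 between extraembryonic ectoderm and epiblast (21%) and 5 of 10 between extraembryonic ectoderm and visceral endoderm (31%). Fgf4, Fgf10 and Fgfr3 passed the filter through 1 lineage alone. Fgf15 reached 1 FPKM outside epiblast only at 1.07 FPKM, in a knockout extraembryonic ectoderm library. The counts and the p-values of these genes thus rest on selection where 1 lineage was high, and the counts are descriptions.

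Among the ligands Fgf4 was 6.59 and 3.83 FPKM in control epiblast and 17.5 and 34.0 FPKM in knockout epiblast. It was listed at 0 in all 4 visceral endoderm libraries and was at most 0.231 FPKM in extraembryonic ectoderm. It stood 3.63 higher in epiblast than in visceral endoderm (adjusted p 7.76e-06) and 3.54 lower in extraembryonic ectoderm than in epiblast (-3.54, 2.28e-05, limma with Benjamini-Hochberg). Fgf15, the endocrine ligand, had the same places: 41.2 and 45.2 FPKM in control epiblast, 60.5 and 86.0 in knockout epiblast, listed at 0 in all 4 visceral endoderm libraries, and 0.285 FPKM in the control and 0 and 1.07 in the knockout extraembryonic ectoderm. The difference was 5.83 between epiblast and visceral endoderm (adjusted p 1.97e-06). Fgf3, next to Fgf4 on the chromosome, stayed low in epiblast, at 0.306 and 0.306 FPKM in controls and 1.21 and 0.669 FPKM in knockouts. Its highest value was 2.73 FPKM in the first knockout visceral endoderm library, against 0.143 and 0.0785 FPKM in the controls and 0 in the other knockout, and it was listed at 0 in extraembryonic ectoderm. It passed the threshold between no pair of lineages, except that extraembryonic ectoderm lay below visceral endoderm without the second knockout visceral endoderm library (-1.03, adjusted p 0.00429, limma).

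Fgf5 and Fgf8 were shared by epiblast and visceral endoderm. Fgf5 was 53.3 and 66.8 FPKM in control and 35.5 and 103 FPKM in knockout epiblast, and 18.2 and 8.65 FPKM in control and 38.5 and 20.2 FPKM in knockout visceral endoderm. It stood 1.62 higher in epiblast than in visceral endoderm (adjusted p 0.0337, limma), a call lost in 9 of 15 alternatives: a pseudocount of 0.1 (0.229), no filter (0.356), TPM scaling (0.0580), median centring (0.0517), and without either control epiblast library (0.112 and 0.144), the second knockout epiblast library (0.0927) or the second control (0.0844) or knockout (0.119) visceral endoderm library. It was 1.31 FPKM in the control and 0 and 1.88 FPKM in the knockout extraembryonic ectoderm, a difference of -4.95 from epiblast (adjusted p 0.000139) and of -3.33 from visceral endoderm (0.000335). Fgf8 was 49.3 and 56.6 FPKM in control epiblast, 61.1 and 6.74 in knockout epiblast, 22.2 and 9.13 in control visceral endoderm and 44.4 and 27.5 in knockout visceral endoderm. Epiblast and visceral endoderm did not differ in it beyond the spread (0.55, 95% interval -0.99 to 2.09). Of the 6 epiblast markers 3 averaged 1 FPKM or more in visceral endoderm, with a summed level of 134 to 156 FPKM in controls and 184 to 200 FPKM in knockouts against 1319 to 2016 FPKM in epiblast. These 3 were Dnmt3b and Utf1, at 61.1 to 93.2 and 39.0 to 120 FPKM, and Otx2, while Pou5f1 and Tdgf1 were at most 0.213 and 0.165 FPKM and Nanog at most 0.440 FPKM. Their part in the Fgf5 and Fgf8 values of visceral endoderm was not tested.

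Fgf8 in extraembryonic ectoderm differed between the 3 libraries, and the epiblast markers given here did not all share its order. It was 25.7 FPKM in the control library, listed at 0 in the first knockout library and 2.84 FPKM in the second. Pou5f1 was 20.5, 0.127 and 13.8 FPKM in these libraries, and Tdgf1 15.4, 0.284 and 11.4 FPKM. Across the 6 epiblast markers the summed level was 607 FPKM in the control and 485 to 583 FPKM in the knockouts, most of it Utf1, at 457, 394 and 482 FPKM. Utf1 was thus highest in the second knockout library, and Dnmt3b, Nanog and Otx2 are not given singly. The difference between extraembryonic ectoderm and epiblast in Fgf8 was -2.25 (adjusted p 0.0473) and was lost in 10 of 13 alternatives. These were a pseudocount of 0.1 (0.107), no filter (0.333), TPM scaling (0.0519), no weights (0.0595) and no trend (0.0511), a mean of at least 5 FPKM (0.0588), and leaving out the first knockout epiblast library (0.135), either control epiblast library (0.157 and 0.176) or the first knockout extraembryonic ectoderm library (0.161). The part of the epiblast markers in these values was not tested.

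Fgf10 was the ligand confined to the visceral endoderm, where it lay below Fgf5 and Fgf8 in every library. It was 2.17 and 3.56 FPKM in control and 5.14 and 5.47 FPKM in knockout visceral endoderm, and at most 0.106 FPKM in epiblast and 0.0239 FPKM in extraembryonic ectoderm. It stood 2.24 lower in epiblast than in visceral endoderm (-2.24, adjusted p 3.22e-05) and 2.27 lower in extraembryonic ectoderm (-2.27, 9.29e-06, limma).

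The receptors were spread so that each lineage had its own set. Fgfr1, the main receptor of the epiblast, was 14.6 and 9.22 FPKM in control epiblast, 26.8 and 9.53 in knockout epiblast, 15.4 in the control and 16.5 and 9.33 in the knockout extraembryonic ectoderm, and 1.39 to 2.12 FPKM in visceral endoderm. Epiblast stood above visceral endoderm by 2.41 (adjusted p 0.000658) and did not differ from extraembryonic ectoderm beyond the spread (0.02, 95% interval -0.81 to 0.84). Fgfr2, the trophoblast receptor for FGF4, was 18.9 FPKM in the control and 24.8 and 18.8 in the knockout extraembryonic ectoderm, against 0.0921 to 2.04 FPKM in epiblast and 0.629 to 1.52 FPKM in visceral endoderm. The differences were 3.40 against epiblast (adjusted p 7.94e-05) and 3.37 against visceral endoderm (1.23e-05, limma). Fgfr3 was 3.63 and 8.23 FPKM in control and 4.75 and 8.08 in knockout visceral endoderm and at most 0.296 FPKM elsewhere, which put epiblast at -2.62 (adjusted p 0.000132) and extraembryonic ectoderm at -2.56 (5.38e-05) against visceral endoderm. Fgfr4 was 8.43 and 7.40 FPKM in control and 6.45 and 6.05 in knockout visceral endoderm, 4.45 to 5.71 FPKM in extraembryonic ectoderm and at most 0.140 FPKM in epiblast, a difference of -2.93 from visceral endoderm (adjusted p 1.42e-05, limma). Visceral endoderm and extraembryonic ectoderm did not differ in Fgfr4 beyond the threshold (-0.45, adjusted p 0.130).

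**Figure D4:**
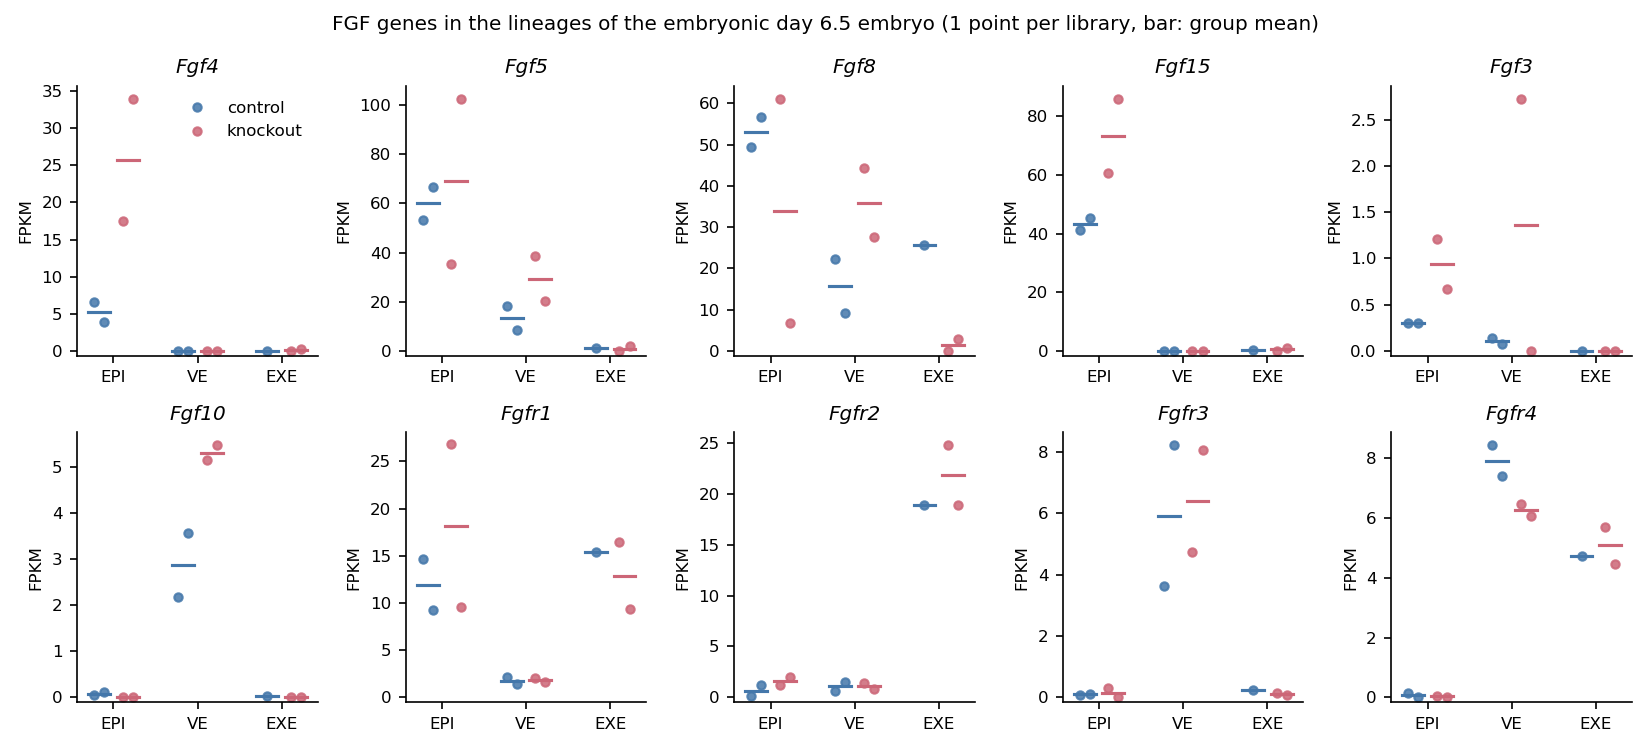
FPKM (y axes, linear, scaled to each gene, 1 point per library, bar at the group mean) of the 10 FGF genes in epiblast (EPI), visceral endoderm (VE) and extraembryonic ectoderm (EXE) at embryonic day 6.5, controls in blue and maternal knockouts in red; EXE has 1 control library. Fgf4 and Fgf15 sit in EPI, Fgf10 and Fgfr3 in VE, and Fgfr2 in EXE.

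Maternal loss of BAP1 changed none of the 10 genes past the threshold at day 6.5, where 0% of all genes tested were called in epiblast, 0.00719% in visceral endoderm and 0.0216% in extraembryonic ectoderm by limma (188, 361 and 641 genes at an unadjusted p under 0.05). Control and knockout libraries did not overlap for 5 of 10 genes in epiblast, 4 in visceral endoderm and 4 in extraembryonic ectoderm, against 24%, 24.2% and 66% of all genes tested, in groups of 1 or 2 libraries. Fgf4 in epiblast had the smallest unadjusted p of the 10 genes: both knockout libraries lay above both controls, with a difference of 2.07 ± 0.43 (SE, 95% interval 1.12 to 3.02; unadjusted p 0.000710, adjusted p 1; 0.617 to 1 over the alternatives). Its direction was opposite to that in late 2-cell embryos, in another library type. Next came Fgf8 in extraembryonic ectoderm (-3.77, adjusted p 0.415), where the single control is assumed to vary like the other groups, and Fgf10 in visceral endoderm (0.73, 95% interval 0.17 to 1.29, adjusted p 1). Fgf8 was 6.74 FPKM in the second knockout epiblast library, and a list of 7 streak markers was read in the same lineage. The list summed to 27.4 and 60.6 FPKM in knockout epiblast, on both sides of the controls at 32.4 and 47.4 FPKM. The streak markers are not given singly, and their part in the Fgf8 values was not tested. The knockout effect was compared between epiblast and visceral endoderm for all 10 genes, and none passed (0.00719% of all genes); the unadjusted p of Fgf4 was 0.00315 (limma, adjusted p 1).

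The partners of the receptors were also arranged by lineage. Klb, the klotho co-receptor that FGF15 uses with FGFR4, was 5.77 and 11.5 FPKM in control and 6.69 and 9.18 FPKM in knockout visceral endoderm and at most 0.317 FPKM in epiblast, a difference of -3.07 (adjusted p 2.71e-05, limma). Of 21 tested co-receptor and heparan sulfate genes 5 were higher and 7 lower in epiblast than in visceral endoderm, where 35.8% of all genes were called. Gpc3 averaged 344 FPKM in visceral endoderm, 27.9 in epiblast and 1.43 in extraembryonic ectoderm, and Sdc1, a syndecan, 21.1 FPKM in epiblast and 0.801 in visceral endoderm. Fgfbp1, a carrier that frees FGFs from the matrix, averaged 223 FPKM in extraembryonic ectoderm, 0.157 in epiblast and 2.98 in visceral endoderm, differences of 7.59 and 6.14 (adjusted p 1.02e-06 and 2.19e-07, limma).

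Among the 20 tested ERK targets and inhibitors 6 were higher and 1 lower in epiblast than in visceral endoderm, a share near the 35.8% of all genes called, with a median difference of 0.31 against 0.20 for all genes. Dusp6 averaged 31.4 FPKM in epiblast, 7.39 in visceral endoderm and 32.0 in extraembryonic ectoderm, higher in epiblast than in visceral endoderm by 1.98 (adjusted p 0.00458, limma). Dusp4 averaged 13.2 FPKM in epiblast, 10.5 in visceral endoderm and 0.582 in extraembryonic ectoderm. Fos, an immediate early target, averaged 9.80 FPKM in extraembryonic ectoderm and 0.0675 in epiblast (3.34, adjusted p 1.06e-05, limma). It passed the filter through extraembryonic ectoderm alone, with at most 0.420 FPKM in visceral endoderm. Gab1, an adaptor, averaged 1.02 FPKM in epiblast against 15.5 in visceral endoderm and 21.8 in extraembryonic ectoderm, and Mapk3 averaged 70.3, 78.5 and 15.6 FPKM in these lineages. In the knockout comparison at day 6.5 none of these listed genes was called in any lineage.

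The genes most like each member were taken by the Pearson correlation of log2(FPKM + 1) over the libraries of a table, a description that carries no test because libraries of a stage or lineage move together. Over the 26 early libraries Fgf4 was closest to Itpkc (0.993), Zfp292 (0.987) and Amhr2 (0.985). Fgf8 was closest to Drap1 (0.981), Rdx (0.981) and Gja4 (0.977), and Fgfr2 to Daglb (0.985), Cnpy2 (0.985) and Ralgapb (0.983). Fgfr1, nearly level over the stages, had no close companion, with Haspin at 0.703. Over the 11 libraries of day 6.5 Fgf10 was closest to Apob (0.999), Sox7 (0.997) and Tfec (0.996), Fgfr3 to Mcoln2 (0.997), Klb (0.995) and Maf (0.994), and Fgfr4 to Tfeb (0.991). Fgfr2 was closest to Slc30a2 (0.984), Rhox2a (0.979) and Fos (0.978), Fgf5 to Nt5dc2 (0.988), and Fgf15 to Mfap4 (0.994). Fgf8, spread over lineages, reached 0.856, with H1f10.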

How the data were processed

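Per the labels, the 26 early libraries are total RNA (SMART-Seq Stranded) and the 11 day 6.5 libraries are poly(A) RNA (SMART-Seq mRNA with Nextera XT). The deposited values are FPKM, which the authors made with Trim Galore 0.6.6, STAR 2.7.9 and StringTie 2.1.7 on mm10, per the submitters' processing notes. In control epiblast replicate 1 the deposited column has the unit other, because it lists 1 gene just below 0, which was set to 0. FPKM keeps no read numbers, so depth is unknown and the number of libraries limits the precision.

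Tests used log2(FPKM + 1) and the genes that reached 1 FPKM in 2 or more libraries of their table (15184 early and 13914 at day 6.5). A gene could pass this filter through 1 group alone. Its p-values against other groups are then not independent of the filter. Group means were fitted with limma 3.58.1 in R 4.3.3, all groups of a table together, with array weights shared by the libraries of a stage or lineage, an intensity trend, Benjamini-Hochberg adjustment within a comparison and a threshold of 0.05. On simulated data with 200 changed genes, equal weights gave 399 false of 583 calls in early 2-cell embryos and the weighted fit 4 of 156, so weights were used. The simulated spread was set by stage or lineage, the form that the weights model, so other forms of spread were not compared. The weighted fit gave more false calls in FGO (11 against 0), MII eggs (8 against 0) and late 1-cell embryos (12 against 2). In late 2-cell embryos it gave fewer (10 against 35). In the simulated epiblast comparison the weighted fit recovered 22.4% of genes changed by 2 log2 units and 78.8% of those changed by 4. It made 2 false of 69 calls. Equal weights recovered 61.2% and 87.9% there, with 18 false of 119 calls. Stages and lineages were compared with both genotypes averaged, and knockout effects between stages or lineages by interaction contrasts.

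Members, lists and tests were chosen with earlier results of these data known. The genes named are the 10 members, the called gene with the largest rise and fall in each pathway list and comparison whose higher group averaged 5 FPKM or more, and the 3 genes most correlated with a member; further list genes were added after their values were seen. Positions are from GENCODE M21 (54349 of 55401 identifiers matched with version) and promoters from RefSeq (7 of 10 genes matched). Replicate numbers come from the titles; same-numbered libraries deviated together with correlations of -0.08 to 0.14 in the early stages, so they were not treated as pairs. Alternatives were a pseudocount of 0.1, no filter, a mean of 5 FPKM or more, TPM scaling, median centring, no weights, no trend, a replicate block, each stage or lineage alone, and leaving out each library. Tables and plots were made in Python 3.11.15 with pandas 2.3.3 and matplotlib 3.10.9.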

Additional observations from a re-analysis of the deposited data

Results flagged for a closer look

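For 3 genes the knockout effect differed between early and late 2-cell embryos by an interaction contrast in limma. The knockout effect on Fgf4 was lower at the late 2-cell stage by 2.49 (a difference of -2.49 on the log2(FPKM + 1) scale, adjusted p 1.99e-06), and it passed under each alternative run, with an adjusted p of at most 0.00705. Fgf4 was at most 0.270 FPKM in early 2-cell embryos, which left little room for a fall there. The effect on Fgf8 was higher by 1.21 (adjusted p 0.00880), and this was lost without the first late 2-cell control library (0.93, adjusted p 0.0753). The effect on Fgf10 was higher by 0.80 (adjusted p 0.0104), and this was lost with a pseudocount of 0.1 (adjusted p 0.209), with TPM scaling (0.0605) and without the second late 2-cell control library (0.0677). All 3 comparisons use the same 11 libraries.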

How the results depend on the processing

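Over all alternatives 1921 values of single FGF genes were recomputed: 1789 stayed on their side of the threshold (called values with their direction, others within 1 SE), 59 moved by more without being called, 45 lost the threshold, 28 gained it, and 75 changed sign, 0 of them among called values. In knockout comparisons the number of FGF genes called changed as follows. With a mean of at least 5 FPKM, which removes Fgf4 and Fgf10, it was 0 in FGO, MII eggs and late 1-cell embryos, 1 in early and 2 in late 2-cell embryos; with no filter and with no trend it was 1 in early 2-cell embryos, and with each stage alone 2 in late 2-cell embryos. It was 2 in late 1-cell embryos with median centring and 3 with the replicate block, whose pairing the labels do not give. Leaving out 1 library gave 1 to 3 in late 1-cell, 1 to 2 in early 2-cell and 2 to 4 in late 2-cell embryos, and 2 to 4 for the step from late 1-cell to early 2-cell, which was 4 with TPM scaling and with no weights. With a mean of at least 5 FPKM the step from early to late 2-cell had 2, its knockout interaction 1, epiblast against visceral endoderm 4 and extraembryonic ectoderm against visceral endoderm 3. At day 6.5 the replicate numbers deviated together (0.587 in epiblast, 0.424 in visceral endoderm, each from 2 libraries a group), and with the block Fgf4 in epiblast had an adjusted p of 0.662. Counts over all genes moved by over 1.5 times: 803 to 2271 in FGO (2107), 895 to 3408 in MII eggs (2545), 1176 to 2889 in late 1-cell embryos (2675), 1193 to 4407 in early 2-cell embryos (2046), 0 to 3 in epiblast (0), 0 to 19 in visceral endoderm (1) and 0 to 2564 in extraembryonic ectoderm (3). Median centring shifted the median knockout difference of all genes by 0.105 in MII eggs and -0.134 in epiblast, and TPM scaling by 0.107 in early and 0.140 in late 2-cell embryos; for the steps of development after MII the shifts were 0.139, 0.170 and -0.278 with median centring and -0.155 and -0.150 for the steps to the early and late 2-cell stages with TPM scaling; the share of called genes that were higher went from 28.1% to 52.8% in FGO, 39.2% to 66.3% in MII eggs, 43.1% to 53.3% in late 1-cell and 46% to 60.7% in early 2-cell embryos with median centring and from 49.8% to 64% in late 2-cell embryos with TPM scaling (46% to 60.2% in early 2-cell embryos), and from 42.6% to 57%, 39.3% to 69.9%, 39.5% to 55.1% and 57.2% to 39% for the 4 steps with median centring. The only extraembryonic ectoderm control could not be left out and that lineage was not fitted alone.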
